A study of Mus musculus with 4 samples.

Results

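The serpins are a family of proteins with a common fold, most of which inhibit proteases. The 62 genes described here are all genes of the tables whose name begins with Serpin, followed by a clade letter from a to i, a number and any closing letter, of 25814 genes listed. They were compared in keratinocytes (KCs), the main cells of the epidermis, from 2 wild-type (WT) libraries and 2 libraries labelled Nfat5-/-, from mice whose gene for NFAT5, a transcription factor of the osmotic stress response, is disrupted. All KCs came from the tail skin of adult 129/sv mice and were cultured without treatment, free of serum and at low calcium. The methods of the study state that WT siblings served as controls, and that mice of this strain background have kidney atrophy and a raised blood sodium. Age in weeks, sex and time in culture are not given in the labels of these libraries.

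An inhibitory serpin presents an exposed stretch, the reactive centre loop, as bait. The protease cuts this loop after a residue called P1, the loop springs into the body of the serpin, and the protease is trapped in a dead complex. The P1 residue strongly shapes which proteases are caught: trypsin-like enzymes such as plasmin and the plasminogen activators cut after arginine or lysine. Clade A holds mostly secreted plasma proteins and clade B mostly proteins that stay inside cells. Clades E, F and G hold inhibitors of plasminogen activation, plasmin and complement together with relatives, and clade H the collagen chaperone HSP47. In the epidermis, serpins are known as counterparts of the kallikreins and other proteases that act in shedding and repair.

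Reads per gene summed to between 16219445 and 23494436 per library. Serpin genes took 0.263% to 0.296% of these reads. Nfat5 itself had 408 and 929 reads in the WT libraries. The libraries labelled Nfat5-/- had 715 and 770, so its read number did not separate the labels, and reads per exon were not analysed here. Of 8 basal keratinocyte markers all were tested, and their summed level was 11255 to 13268 RPKM (exon reads corrected for gene length and sequencing depth, the unit used for levels here). This sum is carried by Krt5 and Krt14. Lamb3, a laminin chain of the basement membrane, passed the test as lower, at 397 and 429 RPKM in WT and 190 and 204 in Nfat5-/- (log2 fold change -1.05, edgeR adjusted p = 0.0123). Of 8 fibroblast markers 2 were tested, with a summed level of 0.460 to 1.15 RPKM. The 5 suprabasal markers summed to 5.51 and 4.97 RPKM in WT and to 7.31 and 10.5 in Nfat5-/-. Of these, 4 had a positive log2 fold change and 1, Krt10, a negative one (0.854 and 0.684 RPKM in WT, 0.550 and 0.520 in Nfat5-/-). Lor, the largest part of the sum, had 2.54 and 2.59 RPKM in WT and 3.94 and 6.07 in Nfat5-/-. None of the 5 passed the edgeR test (1.27% of all genes tested did), 2 had an unadjusted p under 0.05 (14.6% of all genes) and DESeq2 called 0 (3.28% of all genes). Of 5 smooth muscle markers, 4 were tested and all 4 passed the edgeR test as higher in Nfat5-/- (0.943% of all genes did), the sum being 184 and 151 RPKM in WT and 518 and 819 in Nfat5-/-. Among the keratinocyte and smooth muscle markers tested, Krt15, Krt1 and Myh11 reached 10 reads only in Nfat5-/- libraries, so they could be tested only through the group in which they were higher. Of 5 melanocyte markers 4 were tested, of which 3 had negative values and an unadjusted p under 0.05. Tyrp1 alone passed the edgeR test as lower, DESeq2 called Pmel and Tyrp1, and Mitf had a log2 fold change of 0.27. The melanocyte sum was 7.48 and 7.14 RPKM in WT and 2.29 and 3.16 in Nfat5-/-. In such bulk RNA, fewer cells of a type and less RNA per cell cannot be told apart.

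The loop-coding sequences of 7 members are shown first, because the loop is the part of an inhibitor that the protease reads. They were read from the GENCODE M21 transcripts on GRCm38, a C57BL/6J reference, and not from the 129/sv libraries. The capitals mark the P1 codon, placed by its distance from a conserved glycine of the loop. The loop codons of Serpine2 span an exon junction.
Serpine2: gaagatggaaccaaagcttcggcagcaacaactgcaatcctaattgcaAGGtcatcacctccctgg
Serpinb2: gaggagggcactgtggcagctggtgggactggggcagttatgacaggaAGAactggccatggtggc
Serpinb8: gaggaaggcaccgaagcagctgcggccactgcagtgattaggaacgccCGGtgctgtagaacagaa
Serpinb11: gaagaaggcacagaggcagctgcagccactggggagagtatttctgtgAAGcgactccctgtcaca
Serpinb6a: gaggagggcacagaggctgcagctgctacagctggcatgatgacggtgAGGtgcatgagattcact
Serpinb6b: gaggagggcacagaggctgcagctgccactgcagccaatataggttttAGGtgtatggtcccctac
Serpinb6c: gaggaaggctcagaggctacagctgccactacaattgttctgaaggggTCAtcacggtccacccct

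The plasminogen activator inhibitors Serpine2 and Serpinb2 both carry an arginine codon at P1. So do Serpinb6a, Serpinb6b and Serpinb8, whereas Serpinb11 has a lysine and Serpinb6c a serine codon. A loop was found by this pattern in 49 of the 62 genes. Among the 20 members with at least 10 reads in at least 2 libraries it was found in 17, of which 8 code for arginine, 3 for cysteine and 1 for lysine at P1. The remaining 3 were Serpinb5, Serpinf1 and Serpinh1, which are known as serpins without inhibitory activity.

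No read in any library was found for 18 members, and 24 had reads but fewer than the minimum for a fold change. The latter minimum left 20 members, and 19 of them were tested. Of all 25814 genes, 18043 had a read and 12698 met the same minimum. The summed level of all 62 members was 1132 and 1151 RPKM in WT, against 1036 and 1025 RPKM in Nfat5-/-. Serpinb2, Serpinh1, Serpinb6a and Serpinb5 together made up 91.8% to 93.9% of it in every library. Clade B took 68.8% to 73.4%, clade H 21.9% to 24.4% and clade A 0.124% to 0.219%. Within this order, Serpinb6a and Serpinb5 were neighbours whose Nfat5-/- ranges overlapped, and the ranges of Serpinb10 and Serpinb8 overlapped in both groups.

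**Figure D1:**
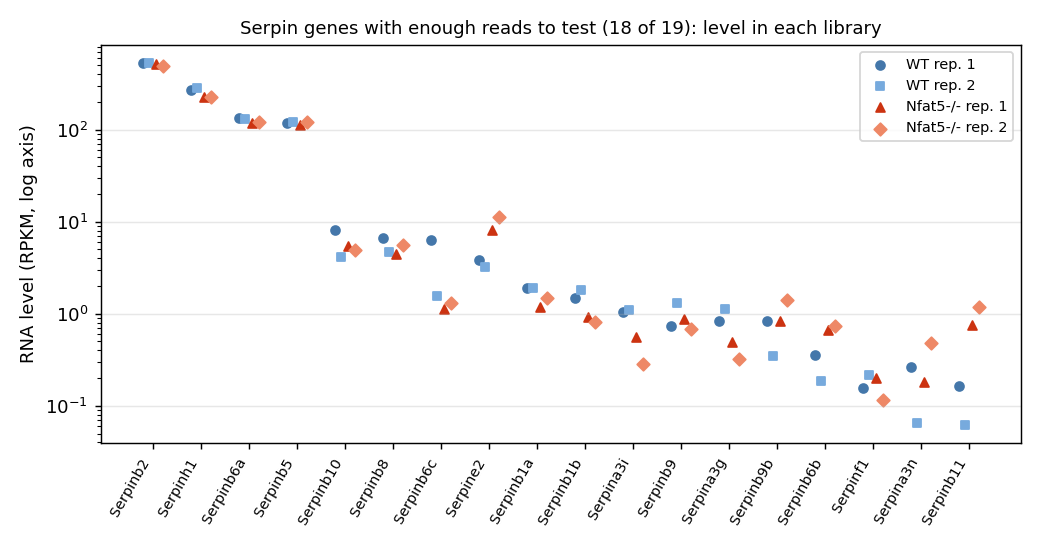
Level of 18 of the 19 tested Serpin genes in each of the 4 libraries (RPKM, log axis), with genes ordered by their WT mean from left to right and 1 point per library. Serpinb2 lies near 500 RPKM in every library, and both Nfat5-/- points of Serpine2 and Serpinb11 lie above both WT points.

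With edgeR's quasi-likelihood test over all genes, 2 of the 19 tested members passed an adjusted p of 0.05, Serpine2 and Serpinb11, both higher in the Nfat5-/- libraries. Over all 12614 genes tested, 1.27% passed in either direction and 0.943% as higher. At an unadjusted p under 0.05 there were 8 members, 3 higher and 5 lower, where 14.6% of all genes tested were below that value. The RPKM of the groups did not overlap for 12 members, 3 above and 9 below WT, and did not overlap for 46.5% of all genes tested. The median log2 fold change (Nfat5-/- over WT) was -0.22 over the 19 members and -0.01 over all genes tested, and 5 members against 14 had a positive value. Serpinb11 and Serpina3n reached 10 reads only in Nfat5-/- libraries, so that these members could be tested only because of the group in which they were higher.

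**Figure D2:**
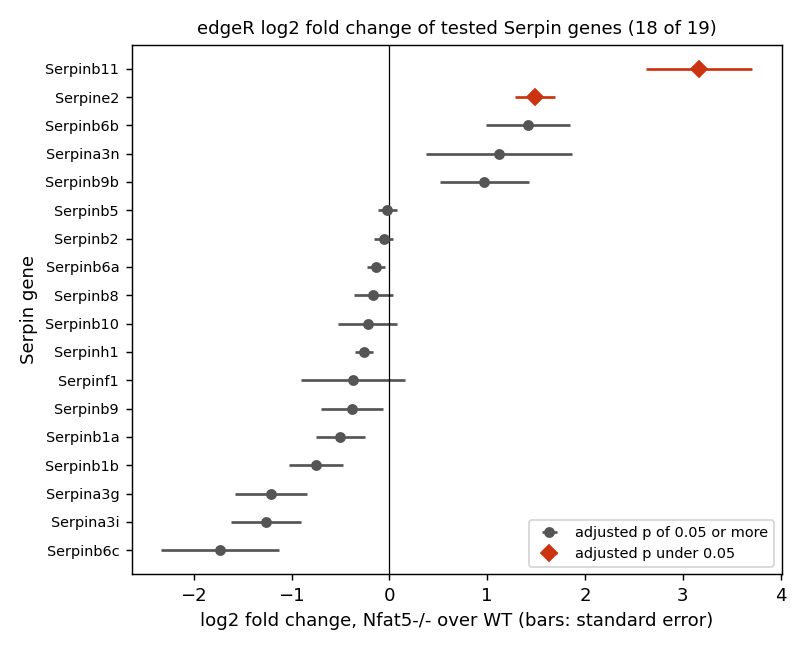
edgeR log2 fold change of 18 of the 19 tested Serpin genes, Nfat5-/- over WT, with bars for the standard error and red diamonds for an adjusted p under 0.05. Serpinb11 (3.16) and Serpine2 (1.49) are the red points, and most of the others lie below 0.

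Serpine2, a clade E gene at chr1:79794197-79861180 on the minus strand, encodes protease nexin-1, a secreted inhibitor of thrombin, urokinase and plasmin that binds to the cell surface. Serpine2 had 149 and 168 reads in WT and 463 and 506 in Nfat5-/-, or 3.85 and 3.22 RPKM against 8.22 and 11.3. Both Nfat5-/- libraries were above both WT libraries, and the means were 3.53 ± 0.443 and 9.77 ± 2.19 RPKM (SD, n = 2 each), a ratio of 2.76. Its log2 fold change was 1.49 (SE 0.21, edgeR adjusted p = 0.0252). All exon reads of Serpine2 were placed at a single site. Without Nfat5-/- replicate 1 the log2 fold change was 1.72 with an edgeR adjusted p of 0.056, and without Nfat5-/- replicate 2 it was 1.22 with an adjusted p of 0.151, so the call was lost without either of them. In these fits 1 Nfat5-/- library stands alone, the spread among replicates comes from the WT pair, and the calls over all genes were 31 and 16 in place of 160. The smooth muscle genes Acta2 (164 and 134 RPKM in WT, 450 and 723 in Nfat5-/-) and Tagln (19.7 and 16.7 in WT, 66.3 and 93.1 in Nfat5-/-) moved with it, whereas Des had 1 read in WT replicate 1 and none elsewhere. Their part in the result was not tested.

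Clade B lies in clusters of 12 genes on chromosome 1 and 15 genes on chromosome 13. Serpinb2, at chr1:107511423-107535478 on the plus strand, encodes PAI-2, an inhibitor of urokinase that is retained largely inside epithelial cells. It was the most abundant serpin, at 533 and 524 RPKM in WT and 512 and 488 in Nfat5-/-. Its Nfat5-/- libraries lay just below the WT libraries, and the log2 fold change was -0.06 (SE 0.09, edgeR adjusted p = 0.822). Serpinb5, which encodes maspin, an epithelial serpin without known protease inhibition, had 118 and 122 RPKM in WT and 112 and 121 in Nfat5-/-. The groups overlapped, with a log2 fold change of -0.02 and an SE of 0.10 (edgeR adjusted p = 0.951). Serpinb6a, an inhibitor of cathepsin G, had 135 and 131 RPKM in WT and 119 and 120 in Nfat5-/-. Its groups did not overlap, but its log2 fold change, at -0.14 (SE 0.10), did not pass (edgeR adjusted p = 0.575).

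Serpinb11, at chr1:107361198-107380475 on the plus strand, is an epithelial clade B gene. It had 6 and 3 reads in WT and 40 and 50 in Nfat5-/-, or 0.165 and 0.0620 RPKM against 0.760 and 1.20. The libraries of the groups were well apart, but the WT level was close to the floor of 3 reads (0.128 to 0.185 CPM, counts scaled to library size, for counting error only). The means were 0.114 ± 0.0729 and 0.979 ± 0.310 RPKM (SD, n = 2 each). Its log2 fold change was 3.16 (SE 0.54, edgeR adjusted p = 0.0463). The call was lost when any of 3 libraries was left out: the edgeR adjusted p was 0.0543 without WT replicate 2, 0.130 without Nfat5-/- replicate 1 and 0.346 without Nfat5-/- replicate 2, with log2 fold changes of 2.55, 3.47 and 2.78. Without WT replicate 1 it was 3.94 (edgeR adjusted p = 0.0223). Each of these fits takes its spread from the group with both libraries. The suprabasal and smooth muscle sums given above were also higher in both Nfat5-/- libraries, although the suprabasal marker Krt10 was lower. The part of these markers in the result was not tested.

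Several other genes of the chromosome 1 cluster were near the limit of detection. Serpinb3a and Serpinb3b, of the squamous cell carcinoma antigen group, had at most 1 read in a WT library and at most 3 reads in an Nfat5-/- library. Serpinb12 had 1 and 1 reads in WT and 3 and 5 in Nfat5-/-, and Serpinb7 had 3 and 2 against 7 and 7. These are too few reads for a fold change. Serpinb13 and Serpinb3d had no read. Serpinb8, an inhibitor of the proprotein convertase furin, had 6.71 and 4.70 RPKM in WT and 4.42 and 5.59 in Nfat5-/-, with overlapping groups and -0.16 ± 0.20 on the log2 scale (SE, edgeR adjusted p = 0.763). Serpinb10 had 8.23 and 4.13 RPKM in WT and 5.42 and 4.97 in Nfat5-/-, again with overlap (log2 fold change -0.22 ± 0.30 SE, edgeR adjusted p = 0.791). Its values are uncertain because its gene model overlaps that of Serpinb2 on the same strand, whose level is far higher.

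**Figure D3:**
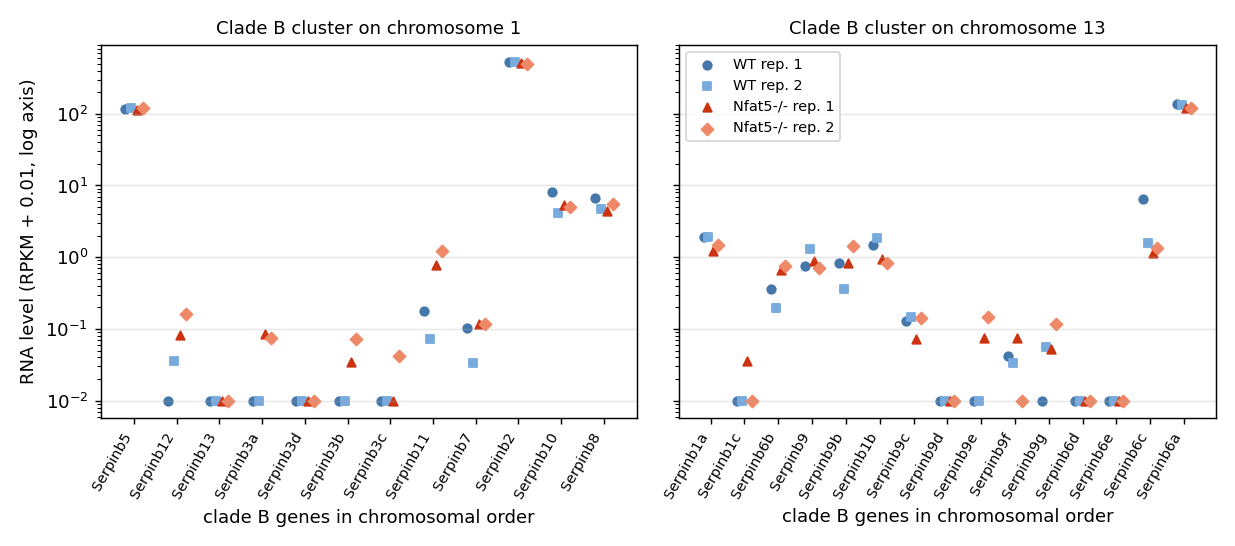
Level of the clade B genes in chromosomal order within the clusters of chromosome 1 (12 genes) and chromosome 13 (15 genes), as RPKM + 0.01 on a log axis with 1 point per library, so that genes without exon reads lie at 0.01. Serpinb2 and Serpinb5 stand far above their neighbours on chromosome 1, and Serpinb6a does so on chromosome 13.

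In the chromosome 13 cluster the members below 10 RPKM did not share a direction. Serpinb6b, a close relative of Serpinb6a, had 0.355 and 0.185 RPKM in WT and 0.660 and 0.738 in Nfat5-/-. Its groups did not overlap, yet its value of 1.42 on the log2 scale (SE 0.43) did not pass (edgeR adjusted p = 0.200). Serpinb6c had 6.40 and 1.56 RPKM in WT and 1.13 and 1.32 in Nfat5-/-. WT replicate 1 alone was high, and the value of -1.73 on the log2 scale (SE 0.60, edgeR adjusted p = 0.260) became -0.41 without it. Without WT replicate 2 it was -2.43 with an edgeR adjusted p of 0.00191, in a fit where the spread comes from the Nfat5-/- pair alone. Serpinb1b had 1.47 and 1.83 RPKM in WT and 0.927 and 0.816 in Nfat5-/-. Serpinb1a had 1.91 and 1.91 RPKM in WT and 1.20 and 1.49 in Nfat5-/-. Both lay below WT without overlap, with log2 fold changes of -0.75 (SE 0.28) and -0.50 (SE 0.25) that did not pass (edgeR adjusted p = 0.281 and 0.412). Serpinb9, an inhibitor of granzyme B, had 0.740 and 1.31 RPKM in WT and 0.867 and 0.690 in Nfat5-/-. Serpinb9b had 0.832 and 0.347 RPKM in WT and 0.830 and 1.40 in Nfat5-/-. The groups overlapped for both.

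**Figure D4:**
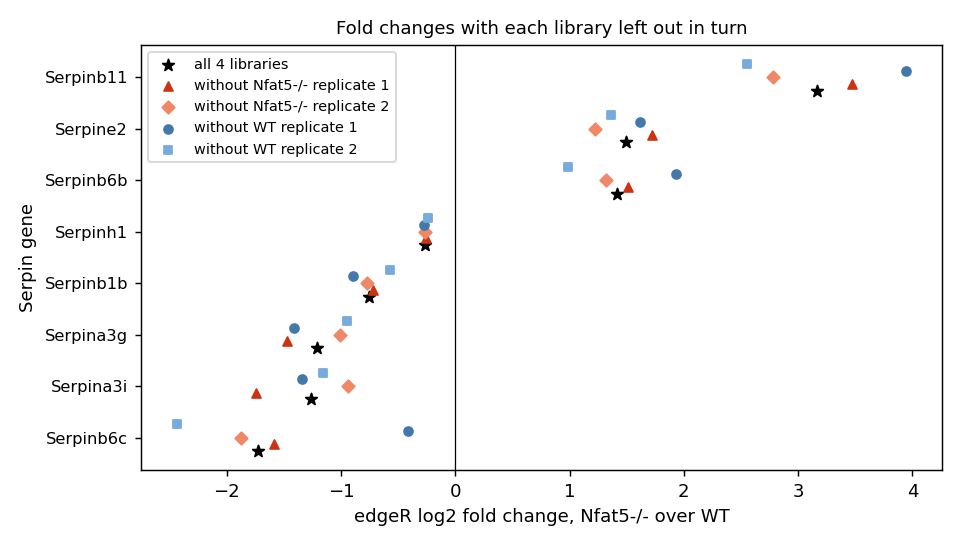
edgeR log2 fold change, Nfat5-/- over WT, of the 8 Serpin genes with an unadjusted p under 0.05, with all 4 libraries (stars) and with each library left out. The values of Serpinh1 lie close together, while Serpinb6c moves from -2.43 to -0.41.

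Serpinh1, at chr7:99345376-99353239 on the minus strand, is the sole clade H gene and encodes HSP47, which binds newly made collagen in the endoplasmic reticulum. It had 270 and 281 RPKM in WT and 229 and 225 in Nfat5-/-. Both Nfat5-/- libraries were below both WT libraries, and the means were 276 ± 7.30 and 227 ± 3.10 RPKM (SD, n = 2 each). On the log2 scale this was -0.26 ± 0.09 (SE, unadjusted p = 0.0273, edgeR adjusted p = 0.275). Of 19 genes of collagen and its folding, 17 were tested and none passed the edgeR threshold. There were 6 at an unadjusted p under 0.05 (14.6% of all genes tested), and DESeq2 called 2, Col4a1 and Col4a2 (3.28% of all genes with an adjusted p). Of these 17 genes, 8 had positive and 9 negative values, and their median log2 fold change was -0.04. Col4a1, a basement membrane collagen chain, had 19.6 and 18.9 RPKM in WT and 27.9 and 41.6 in Nfat5-/- (log2 fold change 0.87, edgeR adjusted p = 0.0874).

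Clade A holds 24 members, of which 11 had no read and 3 were tested. Serpina3g, an inhibitor of lysosomal cathepsins, had 0.831 and 1.14 RPKM in WT and 0.495 and 0.325 in Nfat5-/-. Serpina3i had 1.04 and 1.09 RPKM in WT and 0.566 and 0.286 in Nfat5-/-. For both genes the Nfat5-/- libraries were below the WT libraries, with log2 fold changes of -1.21 (SE 0.37) and -1.26 (SE 0.36), and neither passed (edgeR adjusted p = 0.197 and 0.166). Their exon reads were placed at a single site in 85.0% and 87.2% of cases, since the Serpina3 copies are similar. Serpina3n, which inhibits granzyme B and cathepsin G, had 9 and 3 reads in WT and 10 and 19 in Nfat5-/-, with overlapping RPKM. Serpina1b, an alpha-1-antitrypsin gene, had 5 and 16 reads in WT and 11 and 5 in Nfat5-/-, all of them intronic, and was not tested.

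Serpine3, of clade E, had 1 read in all, and the remaining clades were at or near the detection limit. Serpinf1, which encodes the anti-angiogenic factor PEDF, had 7 and 13 reads in WT and 12 and 5 in Nfat5-/-. Serpinf2, the plasmin inhibitor alpha-2-antiplasmin, had 2 and 4 reads in WT and 0 and 0 in Nfat5-/-. Serping1, the inhibitor of the C1 complement proteases, had 2 reads, both in Nfat5-/- replicate 1. Serpini1, or neuroserpin, had 3 and 2 reads in Nfat5-/- and none in WT, and Serpind1 and Serpini2 had none. Serpinc1, which encodes antithrombin, had 27 and 3 reads in WT and 3 and 6 in Nfat5-/-, but 3.57% of its exon reads were placed at a single site and its gene model overlaps Zbtb37. The members just inside the minimum of 10 reads in 2 libraries were Serpina3n, Serpinf1 and Serpina1b, and those just outside were Serpinc1, Serpinb7 and Serpinb9c, whose highest libraries had 27, 7 and 6 reads.

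The proteases that these serpins are known to meet were read from lists of genes. Of 12 genes of plasminogen activation, 9 were tested, 7 with positive and 2 with negative values, and the median log2 fold change was 0.27. None passed the edgeR threshold, 3 had an unadjusted p under 0.05 and DESeq2 called 1, Plaur. Over all genes these shares were 14.6% at an unadjusted p under 0.05 and 3.28% by DESeq2, and 48.05% of all genes tested with edgeR had a positive value. Plau, the urokinase inhibited by Serpine2 and Serpinb2, had 365 and 707 RPKM in WT and 634 and 642 in Nfat5-/-, so WT replicate 1 stood low and the groups overlapped. Plaur, its receptor, had 40.4 and 50.9 RPKM in WT and 72.7 and 70.0 in Nfat5-/- (log2 fold change 0.66, SE 0.13, edgeR adjusted p = 0.0647). Plat, the tissue plasminogen activator, had 0.500 and 1.27 RPKM in WT and 2.01 and 2.49 in Nfat5-/- (log2 fold change 1.31, SE 0.38, edgeR adjusted p = 0.180). Of 16 target proteases, 10 were tested, 8 with positive and 2 with negative values, with a median of 0.29. None passed the edgeR threshold, 4 had an unadjusted p under 0.05 and DESeq2 called 2, Klk6 and Klk7. Klk5, among the 8 and among the 4, reached 10 reads only in Nfat5-/- libraries. Klk7, a chymotrypsin-like kallikrein of the outer epidermis, had 4.57 and 3.002 RPKM in WT and 7.32 and 8.35 in Nfat5-/- (log2 fold change 1.07, SE 0.23, edgeR adjusted p = 0.0812). Of the 7 complement and contact proteases 2 were tested and C1s1, a C1 protease, was lower: it had 2.15 and 3.37 RPKM in WT and 0.986 and 0.824 in Nfat5-/- (log2 fold change -1.64, SE 0.27, edgeR adjusted p = 0.0412). C1ra, its partner protease in the C1 complex, had 0.827 and 1.26 RPKM in WT and 0.306 and 0.264 in Nfat5-/- (log2 fold change -1.85, SE 0.35, edgeR adjusted p = 0.0620), with 49.7% of its exon reads placed at a single site. DESeq2 called both. The median of all genes tested was -0.01.

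The promoters of the 2 genes that passed the test are shown from 250 bases before to 50 bases after the annotated start, from RefSeq on GRCm38.p6. They lie at chr1:79858616-79858915 on the minus strand for Serpine2 and at chr1:107362064-107362363 on the plus strand for Serpinb11. The capitals mark the NFAT core TGGAAA, the AP-1 sequence TGACTCA or the box TATAAA, each searched on both strands.
Serpine2: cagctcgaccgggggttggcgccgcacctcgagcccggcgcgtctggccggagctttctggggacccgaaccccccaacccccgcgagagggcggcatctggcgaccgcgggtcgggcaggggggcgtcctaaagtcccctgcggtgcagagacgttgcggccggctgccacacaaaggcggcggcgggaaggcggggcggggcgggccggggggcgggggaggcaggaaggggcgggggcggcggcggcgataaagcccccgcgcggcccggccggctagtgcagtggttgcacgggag
Serpinb11: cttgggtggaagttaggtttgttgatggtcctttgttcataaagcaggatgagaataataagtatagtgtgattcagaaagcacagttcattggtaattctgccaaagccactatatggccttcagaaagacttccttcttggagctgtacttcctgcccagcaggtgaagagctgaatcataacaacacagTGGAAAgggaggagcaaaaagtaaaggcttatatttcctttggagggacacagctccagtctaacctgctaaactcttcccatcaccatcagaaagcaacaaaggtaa

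The Serpine2 window held none of these letters, and that of Serpinb11 held TGGAAA once. Both windows lie inside the gene spans given above, so the outer 5' ends of those gene models were not searched. RefSeq gave 62 such windows for 53 of the members. TGGAAA was in 16 of the 62 windows and in 21.5% of all 32544 promoter windows, TGACTCA in 6 and 5.19%, and TATAAA in 18 and 13.6%. The longer TonE sequence, which NFAT5 is known to bind and which contains the NFAT core, was in 3 serpin windows (Serpinb12, Serpinh1 and Serpini2) and in 4.97% of all windows. Of the clade B genes with a window, TATAAA was found in 7 of 11 on chromosome 1 and in 2 of 14 on chromosome 13. These matches describe the letters of the reference and not binding.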

How the data were processed

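Primary KCs from 2 WT and 2 Nfat5-/- mouse cultures were analysed by poly(A) RNA-seq. The authors aligned the reads to GRCm38 with CLC Genomics Workbench 12.0 and deposited, per library, the raw counts of reads in each gene, its exons and its introns. The authors also deposited RPKM, written with decimal commas, which were read as decimal numbers and used as levels. Whether reads were counted by strand is not given, and overlapping genes are uncertain. Depth was 16219445 to 23494436 gene reads, and 3 reads corresponded to 0.128 to 0.185 CPM.

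Total gene reads of all 4 libraries were fitted with edgeR 4.0.16 in R 4.3.3 (filterByExpr, TMM factors of 0.980 to 1.01, quasi-likelihood F test with genotype as sole term, two-sided, Benjamini-Hochberg adjustment over 12614 genes, threshold 0.05). Within these 4 libraries p-values measure only the spread between the libraries, which the labels describe as replicates. Simulated counts were drawn with the dispersions fitted to these same libraries. With 195 tested genes changed 2-fold, 132 were recovered with 23 false calls, and of 198 changed 4-fold, 191 with 8 false calls. At 2-fold the false calls were thus more than the 0.05 share of calls that the threshold sets. Alternatives were RLE factors, library totals, other filters, exon reads, unique exon reads, DESeq2 1.42.0, limma 3.58.1 on log2(RPKM + 1) and log2(RPKM + 0.1), a replicate block and leaving out each library, where the lone library of a group is assumed to vary like the other group. The difference between replicates 1 and 2 in WT and that in Nfat5-/- correlated at -0.07 over the genes tested. The labels give no pairing, and this value alone does not exclude one.

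Members with at least 10 reads in at least 2 libraries were named with their values, and those past the threshold, above 2 RPKM in a group or with under 60% unique exon reads were described further. Members, lists and tests were chosen with earlier results of these data known. The values of 1 tested member are not reported here, although the counts include it.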

Additional observations from a re-analysis of the deposited data

Results flagged for a closer look

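The intron reads, which the comparisons above use only within the gene total, gave a value above both WT libraries in both Nfat5-/- libraries for 2 of the 13 members with at least 10 intron reads over the 4 libraries, where 9.72% of all genes with as many intron reads did so. In 3 of the 13, Serpina3i, Serpinb2 and Serpinb6c, both Nfat5-/- libraries were below both WT libraries, as in 36.6% of all such genes. For Serpine2 the lowest Nfat5-/- library had 0.213 intron reads on the CPM scale of all gene reads, from 5 reads, while WT had 1 and 3 reads. For Serpinc1 it had 0.128, from 3 reads, while WT had 1 and 1. Both values rest on very few reads, and no test was run on them.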

How the results depend on the processing

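Of 263 alternative values of the 19 tested members, 244 kept their direction and side of the threshold, and 15 genes never changed direction. The direction turned when single libraries were left out: the log2 fold changes ran from -0.64 to 0.34 for Serpinb10, from -0.089 to 0.049 for Serpinb5, from -0.40 to 0.11 for Serpinb8 and from -0.70 to 0.074 for Serpinb9. The number of members called was 8 of 44 tested without a filter, 4 of them higher, where 1137 of all 18043 genes tested were called. Besides Serpine2 and Serpinb11, they included Serpinb6b and Serpinb9b as higher and Serpina3g, Serpina3i and Serpinb6c as lower. With a minimum of 10 reads in every library it was 1 of 15, where 160 of 11899 genes were called and Serpinb11 is no longer tested. The number of members called was 1 with limma on log2(RPKM + 1) and 1 on log2(RPKM + 0.1), where 12 members were tested and Serpinb11 was not among them. Of all 10261 genes tested there, 161 and 141 were called. Leaving out each library in turn gave 0 to 3 called members, with 0 (5 at an unadjusted p under 0.05) without Nfat5-/- replicate 1 and 0 (2 unadjusted) without Nfat5-/- replicate 2, and 16 to 478 called genes in all. Those called were Serpine2, Serpinb6c and Serpinc1 without WT replicate 2, and Serpine2 and Serpinb11 were among those called without WT replicate 1. DESeq2 called the same number of members, 2, and 420 genes in all, and without a filter edgeR called 1137 genes. The cause of these differences was not tested. With the replicate block, 1 member was called, Serpine2 (edgeR adjusted p = 0.0402), while Serpinb11 had 0.0824. Of all 12614 genes tested with the block, 132 were called. The labels do not state whether same-numbered libraries are paired. Depth limits members under 10 reads, for which no fold change was read.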
